A study of Mus musculus with 4 samples.

Results

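The genes described here keep helper T cells naive and recirculating: the homing and egress receptors Ccr7 and S1pr1, the interleukin 7 receptor chain Il7r, the transcription factors Klf2, Foxo1, Tcf7 and Lef1, the chromatin organiser Satb1, and Dapl1, whose mRNA is high in naive T cells. Members were taken by name, as all probe sets that the array annotation assigns to 1 of these 9 symbols alone. This gave 17 probe sets for 8 genes, of 18193 genes with such a probe set; none was assigned to Tcf7, which was not analysed here. Of the 17 probe sets, 16 passed the filter on mean signal, and the dimmest of the 4 Foxo1 probe sets did not.

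RNA came from sorted CD4+ CD62L+ CD44- T cells of mice aged 10 to 11 weeks, profiled on 4 Affymetrix Mouse 430 2.0 arrays. The knockout group (2 arrays) came from mice carrying the CD4-cre transgene and a furin gene flanked by loxP sites on both alleles (fur flox/flox), so that Cre, driven by the CD4 promoter, acts in T cells and not in the whole animal. The wild type group (2 arrays) came from littermates with the same fur flox/flox alleles and no Cre. The Cre transgene itself therefore differs between the groups together with the deletion, and the effects of the 2 cannot be told apart. Whether the paired arrays of a group held RNA of different mice, of pools or of 1 preparation is not in the labels. The errors below therefore reach no further than these samples. SEs and intervals are moderated by limma, which draws the variance of each probe set toward a value estimated from all kept probe sets. They are thus not the spread of that probe set alone. Furin is a proprotein convertase that cuts precursor proteins into their active forms.

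Naive T cells circulate between blood and lymph nodes. Ccr7 brings them in through the node's high endothelial venules, S1pr1 lets them leave along a gradient of sphingosine 1-phosphate, and signals through Il7r keep them alive between visits. Foxo1 is known in mice to act upstream of Klf2, Ccr7 and Il7r, Klf2 to act upstream of S1pr1, and Lef1 and Tcf7 to be related factors that maintain T cell identity.

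The sequences upstream of the start sites of 3 members are shown because Il7r and Foxo1 were the members lower on both knockout arrays than on both wild-type arrays, and Dapl1 was the only one higher within both array numbers. They are RefSeq sequences of build GRCm38.p6, 250 bases before the gene's start, printed 5′ to 3′ on the gene's strand: Il7r at chr15:9529877-9530126 on the minus strand, Foxo1 at chr3:52268087-52268336 on the plus strand and Dapl1 at chr2:59484403-59484652 on the plus strand. Capitals mark matches to the motifs named in the next paragraph.
Il7r: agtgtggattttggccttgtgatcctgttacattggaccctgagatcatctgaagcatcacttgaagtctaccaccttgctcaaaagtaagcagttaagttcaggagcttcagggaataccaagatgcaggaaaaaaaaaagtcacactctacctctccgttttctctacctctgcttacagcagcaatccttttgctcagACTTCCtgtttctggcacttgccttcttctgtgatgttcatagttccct
Foxo1: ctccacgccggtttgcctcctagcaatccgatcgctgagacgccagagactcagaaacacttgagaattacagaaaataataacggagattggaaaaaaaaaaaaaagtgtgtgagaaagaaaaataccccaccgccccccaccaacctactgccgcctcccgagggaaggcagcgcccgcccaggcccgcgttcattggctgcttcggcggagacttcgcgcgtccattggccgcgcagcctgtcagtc
Dapl1: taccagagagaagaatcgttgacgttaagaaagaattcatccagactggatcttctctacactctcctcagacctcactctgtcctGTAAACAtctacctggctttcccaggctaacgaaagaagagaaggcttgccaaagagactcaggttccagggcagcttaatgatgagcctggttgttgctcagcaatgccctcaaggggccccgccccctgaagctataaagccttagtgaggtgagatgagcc

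For description, 4 short motifs were searched on both strands in the 13 such windows of the 6 measured members that have one. The forkhead motif GTAAACA, the kind of site that Foxo1 binds, matched 1 window, that of Dapl1 at position -164 from the start; 3.17% of 32851 windows of all genes hold it. The ETS core GGAAGT matched 4 windows, 1 of Il7r at position -49 on the opposite strand (ACTTCC in the printed run), 2 of Satb1 and 1 of Lef1, against 19.7% of all windows; its letters were chosen after the Il7r window had been seen. The KLF motif GGGTGTG matched 1 window of Satb1, against 6.93% of all windows, and the TCF/LEF motif CTTTGAT matched 0, against 3.21%. These matches describe letters in a short window.

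Values are MAS5 signals on a linear scale, and differences are knockout minus wild type on the scale log2(signal + 15.3), where the added 15.3 is the 25% quantile of all values. The arrays also differed by their number. Across probe sets, deviations from the group mean correlated at 0.80 between same-numbered arrays of the 2 groups. The added bacterial controls BioB, BioC, BioDn and CreX were 6.25-fold brighter on array 2 than on array 1 of the wild type and 6.09-fold brighter in the knockout, and the 3′ to 5′ ratio of the Gapdh control was 4.09 and 3.35 on the arrays numbered 1 (wild type and knockout) and 0.905 and 0.934 on those numbered 2. The same ratio of the beta-actin control went the other way. It was 1.23 and 1.20 on the arrays numbered 1 (wild type and knockout) and 1.72 and 1.77 on those numbered 2. Each difference is therefore given within arrays numbered 1 and within arrays numbered 2 as well as over all 4. The labelled cell type was checked on T cell markers: the 10 measured ones ranged from 2974 for Cd4 to 42640 for Cd3d. Of the markers of CD8 T and NK cells 5 passed the filter, and Ncr1 and Klrb1c were not measured. Nkg7 and Cd8a lay between 104.6 and 344.5, Cd8b1 between 247.1 and 994.7, Klrd1 between 1287.6 and 1911.3 and Ctsw between 851.1 and 4114.3. Without detection calls these values do not show whether the dimmer markers were expressed. The 1 Furin probe set read 435.1 and 343.9 on the wild-type arrays and 391.4 and 446.9 on the knockout arrays, a difference of 0.11 (SE 0.34), and since it may lie outside the deleted part it does not check the labels.

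All 8 measured genes were bright in these cells. The brightest probe set of each gene lay within the top 8.58% of 45037 probe sets on wild-type array 1, 4.51% on wild-type array 2, 7.17% on knockout array 1 and 4.36% on knockout array 2. The rank of a probe set also depends on how well its probes bind, so genes are not ordered by level here. The plot of signals by array shows the values of all 17 probe sets.

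**Figure D1:**
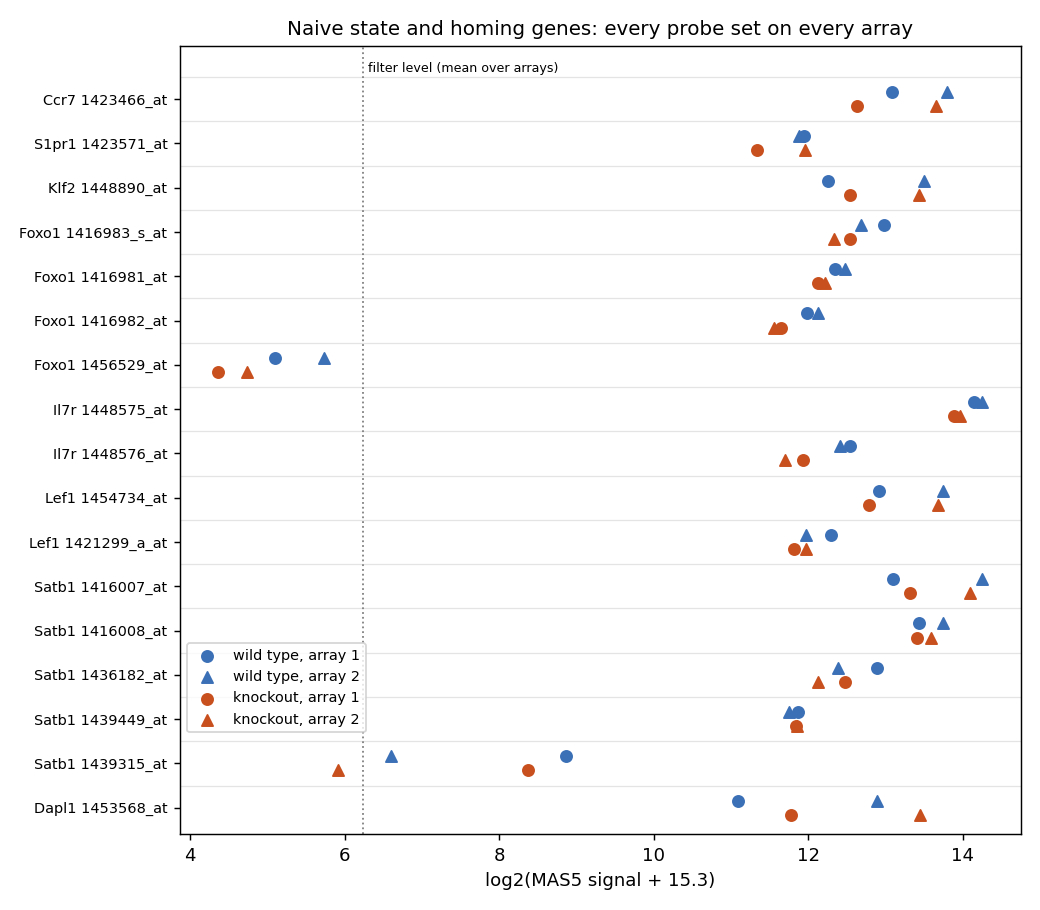
Each point is 1 probe set (rows) on 1 array, on the log2(MAS5 signal + 15.3) scale; blue is wild type, orange is knockout, circles are arrays numbered 1, triangles are arrays numbered 2, and the dotted line is the filter level. The orange points of every Foxo1 and Il7r probe set lie left of both blue points, while Ccr7, Klf2, Dapl1 and several Satb1 and Lef1 probe sets spread mainly by array number.

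The lower signals of Il7r, which encodes the alpha chain of the interleukin 7 receptor, were seen in both of its probe sets. The brighter one (1448575_at) read 18091 and 19445 on the wild-type arrays and 15154 and 15939 on the knockout arrays, in replicate order. It ranked 127 and 327 on the wild-type arrays and 206 and 413 on the knockout arrays. The other one (1448576_at) read 5974 and 5460 in the wild type and 3893 and 3323 in the knockout, so that the knockout signal was 65.2% of the wild type on arrays numbered 1 and 60.9% on arrays numbered 2. In neither probe set did the groups overlap. Group means were 5717 ± 364 and 3608 ± 403 for 1448576_at and 18768 ± 957 and 15546 ± 555 for 1448575_at (wild type and knockout, SD, n = 2).

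The size of the Il7r difference depended on the probe set. It was -0.27 (SE 0.32; -0.26 and -0.29 within the numbers) for 1448575_at and -0.67 (SE 0.33; -0.62 and -0.71) for 1448576_at. With the array number as a block the interval of 1448576_at ran from -1.14 to -0.19, and that of 1448575_at from -0.74 to 0.20. The limma adjusted p over all kept probe sets was 1 for both without the block, and 0.748 and 0.527 with it. Only with the block and a prior variance that follows the signal level did 1448576_at pass (limma adjusted p = 0.00849), while 1448575_at did not (0.265).

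Foxo1, the forkhead transcription factor that promotes Il7r, Ccr7 and Klf2 expression in mouse T cells, was lower in the knockout in all 4 of its probe sets, with no overlap between the groups. Probe set 1416983_s_at read 8114 and 6592 in the wild type and 5955 and 5141 in the knockout. Probe set 1416982_at read 4046 and 4467 in the wild type and 3185 and 2997 in the knockout. The knockout values of both lay below both wild-type values.

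The remaining Foxo1 probe sets had the same direction. Probe set 1416981_at read 5223 and 5715 in the wild type and 4446 and 4735 in the knockout. The dim 1456529_at, below the filter and untested, read 19.1 and 37.7 against 5.3 and 11.3; these values lie near the added 15.3. Differences of the 3 kept probe sets were -0.40 (SE 0.34; -0.45 and -0.36 within the numbers), -0.46 (SE 0.32; -0.34 and -0.57) and -0.25 (SE 0.32; -0.23 and -0.27), in the order above. None passed limma: adjusted p-values were 1 without the block, 0.605 to 0.768 with it, and 0.153 to 0.522 with the block and the trended prior.

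Across the members, 5 of the 16 kept probe sets (31.2%), all of Foxo1 and Il7r, had both knockout arrays below both wild-type arrays, where 9.54% of all kept probe sets did; 0 had both above, where 7.62% did. Within both array numbers the knockout was lower in 10 of 16 (62.5%) against 30.1% of all kept probe sets, and higher in 1, that of Dapl1, against 25.3%. Probe sets of 1 gene read the same mRNA and are not independent, so counts by gene were also made. By the brightest probe set, 4 of 8 genes (Ccr7, Foxo1, Il7r and Lef1) were lower within both numbers, against 27.2% of 10211 genes, and 2 of 8 had groups that did not overlap, against 8% of genes. The median difference of the 8 genes was -0.18 (-0.20 and -0.10 within the numbers), beside -0.002 over all genes. The members were named with earlier results of these arrays known, so these shares describe the list only.

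**Figure D2:**
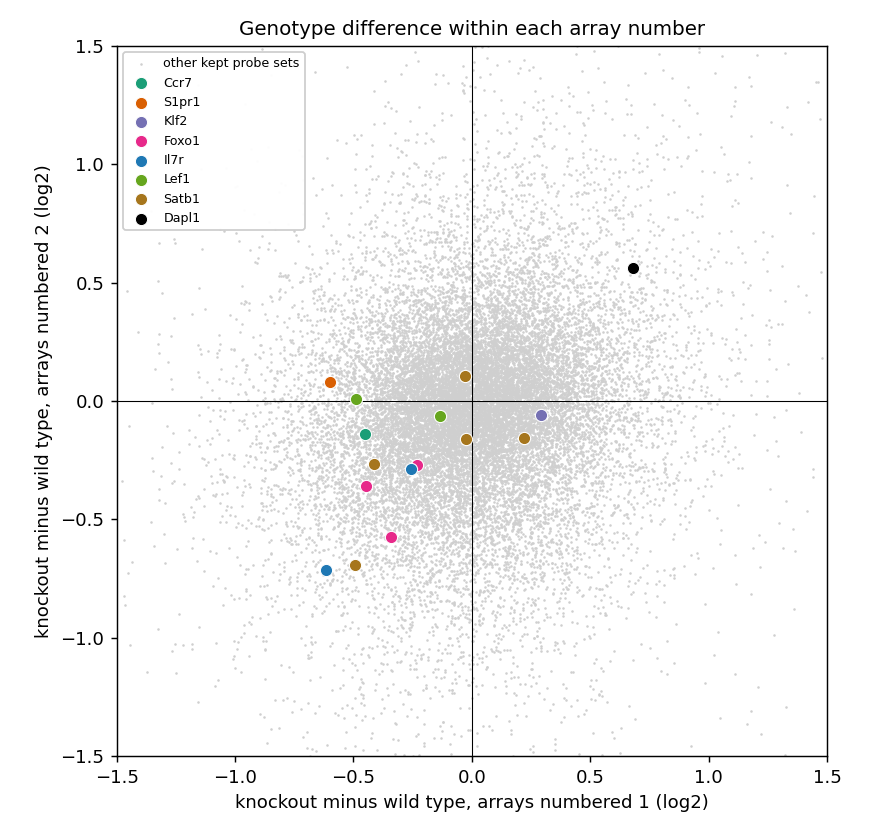
Knockout minus wild type on the log2 scale within the arrays numbered 1 (x axis) and numbered 2 (y axis); grey points are all kept probe sets and coloured points the 16 of the members, while 437 grey probe sets lie beyond the axis limit of 1.5. Of the 16, 10 lie at the lower left, where both differences are below 0. They are all those of Foxo1, Il7r and Ccr7 and some of Lef1 and Satb1. Dapl1 lies in the upper right.

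By limma's test without a block, 0 of the 16 member probe sets and 0% of all 22518 kept ones passed an adjusted p of 0.05, with 0 and 145 at an unadjusted p under 0.05. With the array number as a block, 0 members passed beside 0.0266% of all probe sets. In that limma fit 3 of the 16 members had an unadjusted p under 0.05, beside 1897 of all 22518 kept probe sets. With the block and the trended prior 2 members passed, 12.5% beside 1.15% of all probe sets, namely Il7r 1448576_at and Dapl1. The blocked fits rest on 1 residual degree of freedom.

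Neither the homing nor the egress receptor passed limma's test with or without the block. Ccr7, the chemokine receptor for lymph node entry, read 8687 and 14183 in the wild type and 6351 and 12898 in the knockout. Array number separated these values more than genotype did, and the groups overlapped. The difference was -0.29 (SE 0.51; -0.45 and -0.14 within the numbers), and with the array number as a block its SE was 0.20. Limma's adjusted p was 1 without the block, 0.740 with it and 0.320 with the trended prior added, where the interval before adjustment, -0.54 to -0.05, left out 0.

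S1pr1, the receptor for exit from the lymph node, read 3928 and 3758 in the wild type and 2585 and 3979 in the knockout. Only knockout array 1 was low, and the groups overlapped. The difference was -0.60 on arrays numbered 1 and 0.08 on arrays numbered 2, or -0.26 over all 4 (SE 0.37 without the block and 0.24 with it). Limma gave adjusted p-values of 1 and 0.817 in these fits and 0.611 with the trended prior added.

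Klf2, the Krüppel-like factor that drives S1pr1 expression, read 4887 and 11545 in the wild type and 5981 and 11091 in the knockout. Its genotype difference was 0.12 (SE 0.58; 0.29 and -0.06 within the numbers), with an interval of -0.39 to 0.62 and a limma adjusted p of 0.912 under the block. Its signal was 2.36-fold higher on array 2 than on array 1 of the wild type and 1.85-fold higher in the knockout, so the groups overlapped. Foxo1, upstream of Klf2 in mouse T cells, was lower within both numbers, whereas Klf2 had opposite signs.

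Lef1, a partner of beta-catenin at TCF sites, had 2 probe sets. The brighter one (1454734_at) read 7756 and 13713 in the wild type and 7066 and 13115 in the knockout, a difference of -0.10 (SE 0.50; -0.13 and -0.06). The other (1421299_a_at) read 5039 and 3990 against 3589 and 4011, a difference of -0.24 (SE 0.34; -0.49 and 0.01). In both the groups overlapped, and limma's adjusted p with the block was 0.920 and 0.812.

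Satb1, which organises chromatin in thymocytes and T cells, had 5 probe sets that disagreed. The brightest (1416007_at) read 8768 and 19550 in the wild type and 10203 and 17559 in the knockout, a difference of 0.03 (SE 0.55; 0.22 and -0.15). Probe sets 1416008_at and 1439449_at were close to 0 as well, at -0.09 (-0.02 and -0.16) and 0.04 (-0.03 and 0.11), the first of them lower within both numbers. Probe sets 1436182_at and 1439315_at were also lower within both numbers, and further from 0, at -0.34 (-0.41 and -0.27) and -0.59 (-0.49 and -0.69). None of the 5 passed with or without the block.

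Dapl1, related in sequence to a death-associated protein, was the 1 member higher in the knockout within both numbers. It read 2179 and 7595 in the wild type and 3496 and 11210 in the knockout, 1.60-fold higher on arrays numbered 1 and 1.48-fold higher on arrays numbered 2. Because it was over 3-fold brighter on arrays numbered 2 in both groups, wild-type array 2 lay above knockout array 1 and the groups overlapped, with means of 4887 ± 3830 and 7353 ± 5455 (wild type and knockout, SD, n = 2). The difference was 0.62 (SE 0.85; 0.68 and 0.56 within the numbers), and with the block its interval ran from 0.15 to 1.09. Limma's adjusted p was 1 without the block, 0.534 with it and 0.0128 with the block and the trended prior. The 3 genes nearest to Dapl1 over the 4 arrays, by Euclidean distance of centred log2 values, were Pgap3 at 0.12, 2410006H16Rik at 0.17 and Lmo2 at 0.20; all 4 genes were brighter on the arrays numbered 2.

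The array number moved many members more than genotype, and many other probe sets of the table also differed between the numbers. In limma's fit with both terms, 6 of 16 member probe sets (37.5%) differed between the numbers at an adjusted p of 0.05, close to the 34.6% of all kept probe sets that did. Of the 6, 5 were brighter on arrays numbered 2: Dapl1 by 1.74 (SE 0.19, adjusted p = 0.00462), Klf2 by 1.06, Satb1 1416007_at by 0.97, Ccr7 by 0.86 and Lef1 1454734_at by 0.86. Satb1 1439315_at was dimmer there, at -2.36. The kept probe sets of Foxo1 and Il7r differed by -0.26 to 0.11 between the numbers, none past the threshold. In 10 of the 16 the difference between numbers exceeded that between genotypes in size. This count was not made over all kept probe sets, so it does not set the members apart.

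**Figure D3:**
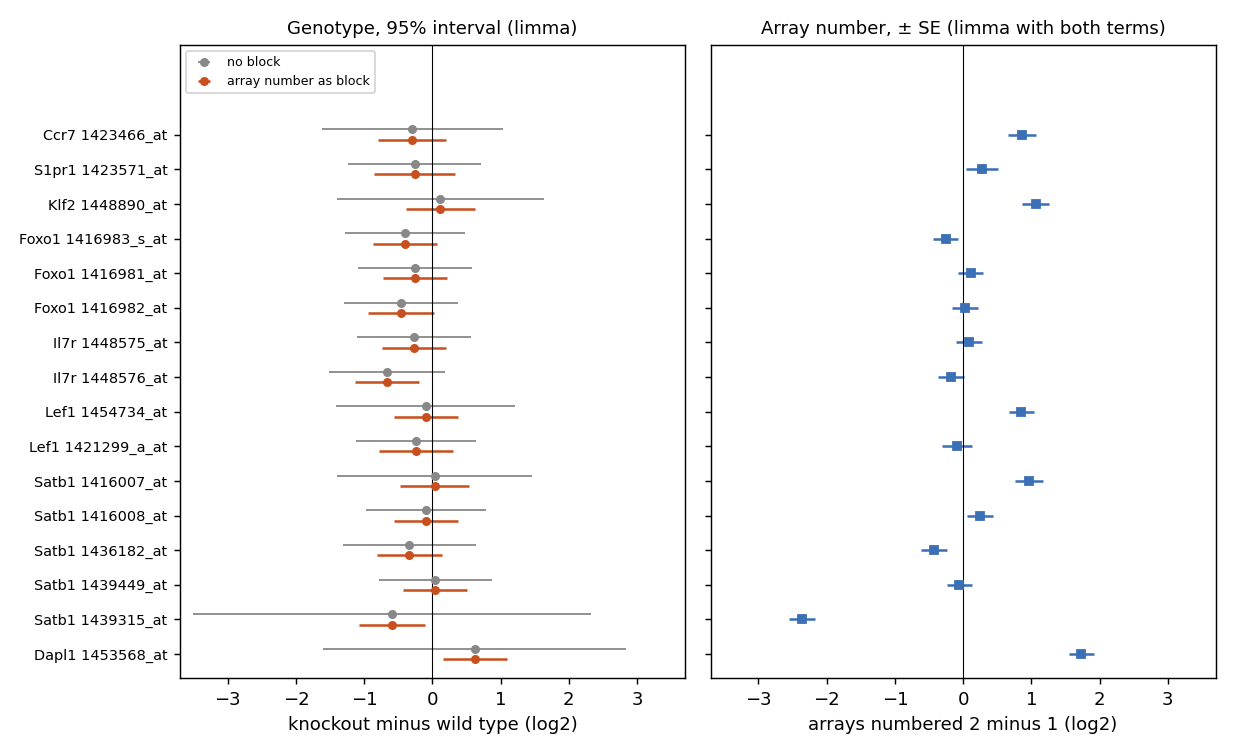
Left, knockout minus wild type (log2) with limma's 95% interval without a block (grey) and with the array number as a block (orange); right, arrays numbered 2 minus 1 (log2) ± SE. With the block the intervals of Il7r 1448576_at, Satb1 1439315_at and Dapl1 leave out 0 before adjustment over all probe sets, and none of the 16 passes after it.

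Markers of other cell types differed between the arrays too. The 9 measured myeloid markers were all higher in the knockout within both numbers, where 25.3% of all kept probe sets were. Measured here means past the filter on the mean over all 4 arrays. A marker high only in the knockout could therefore pass it, so this count partly follows from the filter. Itgam and Ccr2 did not pass. The summed signal of the 9 was 1257 and 3935 on the wild-type arrays and 1993 and 14217 on the knockout arrays. Of 9 measured B cell markers 7 were higher within both, with sums of 12624 and 19353 in the wild type and 11525 and 31167 in the knockout. Ighm, which was not among the 7, made up 11656, 14965, 10033 and 15221 of these sums, in the same order. Without it the other 8 summed to 968 and 4388 in the wild type and 1492 and 15946 in the knockout, higher in the knockout within both numbers. None of these markers was at 0; the lowest was S100a9 at 1.7 on wild-type array 1. With the block and the trended prior limma called 5 of the myeloid and 2 of the B cell markers, all higher. Of the CD8 T and NK cell markers the same fit called 2 in opposite directions: Ctsw, a protease of cytotoxic cells, was lower by limma at -1.60 (adjusted p = 4.48e-07), and Nkg7, a cytotoxic granule protein, was higher at 1.22 (adjusted p = 0.0173). Of 4 regulatory T cell markers (Foxp3, Il2ra, Ctla4 and Ikzf2) 3 were lower within both numbers and 0 were called. The part of these markers in the Il7r, Foxo1 and Dapl1 signals was not tested. The 10 measured T cell markers had sums of 72533 and 154664 in the wild type and 74526 and 147254 in the knockout, and a median difference of -0.03. In bulk samples, fewer cells that express a gene and less of its RNA per cell cannot be told apart.

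Related genes were read as lists, also chosen with earlier results known, each gene by its brightest kept probe set. Limma called 0 genes of the 7 lists without the block and 0 with it. With the block and the trended prior it called 2 of the 86 measured genes (2.33%), beside 1.15% of all kept probe sets; both, Ccl5 and Cxcr3, were effector genes and were higher.

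Among 13 measured homing and retention genes, 4 were higher and 2 lower within both numbers, and the median difference was -0.001. Cd69, a surface protein that holds S1pr1 inside the cell, read 2673 and 2008 in the wild type and 4544 and 2189 in the knockout, a difference of 0.44 (0.76 and 0.12). On knockout array 1 the Cd69 signal stood apart upward and that of S1pr1 downward. Both are mRNA signals, and a link between them was not tested. Gpr183, an oxysterol receptor that positions T cells in the node, was at -0.41 (-0.35 and -0.46). Of the 10 measured genes of the migration machinery 5 were lower and 1 was higher within both numbers, and the differences lay between -0.16 and 0.11: the largest of the same sign were Gnai2, a G protein subunit that couples chemokine receptors, at -0.16 and Rap1b, a small GTPase of integrin activation, at -0.14.

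The 9 measured genes of interleukin 7 and related cytokine signalling had a median of -0.11, with 4 lower and 1 higher within both numbers. The 4 were Stat5b, a signal transducer, Bcl2, a survival protein, and the interleukin 6 receptor chains Il6ra and Il6st. Il6ra read 2720 and 2479 in the wild type and 1979 and 1498 in the knockout, a difference of -0.59 (-0.46 and -0.72) with no overlap between the groups, and limma's adjusted p was 0.560 with the block and 0.0768 with the trended prior added. Bcl2, a gene that interleukin 7 sustains and named here after its values were seen, read 6040 and 5588 against 4295 and 5325, at -0.49 and -0.07 within the numbers. The only higher gene was Jak3, the kinase bound to the common gamma chain, at 0.42 (0.50 and 0.35).

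Of 25 measured quiescence and lineage transcription factors and regulators, 8 were lower and 5 higher within both numbers, with a median of 0.03. The largest were Klf4, another Krüppel-like factor, at 1.10 (1.84 and 0.36) from dim signals, and Gfi1, a repressor, at 0.53 (0.38 and 0.68). The Foxo1 relatives Foxo3 and Foxo4 were at 0.06 (-0.18 and 0.29) and -0.35 (-0.62 and -0.08), both chosen after their values were seen. Among 9 measured Wnt partners of Lef1, 2 were lower and 0 higher within both numbers, with Bcl9 at -0.32 and Ctnnb1, beta-catenin, at -0.14. The 11 measured naive markers had a median of -0.04, with 3 lower and 2 higher; Treml2 was at 0.48 (0.60 and 0.36) and Nsg2 at -0.18 (-0.33 and -0.03).

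Of 9 measured effector counterparts, 6 were higher and 1 was lower within both numbers, and the median was 0.29 (0.32 and 0.43). Ccl5, a chemokine of effector cells, read 136.8 and 132.2 in the wild type and 606.3 and 693.7 in the knockout, and Cxcr3, a receptor that leads effector T cells to inflamed tissue, read 144.1 and 176.6 against 382 and 587.7. In both, the knockout arrays lay above the wild-type arrays, by 2.15 (SE 0.32; 2.03 and 2.27 within the numbers) and 1.48 (SE 0.38; 1.32 and 1.65). The blocked fit gave them limma adjusted p-values of 0.113 and 0.280, which became 1.89e-06 and 8.07e-04 when the prior was trended. Cd44, the gene of the surface protein for which the cells were sorted as negative, was the 1 lower gene, at -0.28 (-0.38 and -0.18). Its mRNA signal read 1126 and 1099 in the wild type and 863 and 965 in the knockout.

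**Figure D4:**
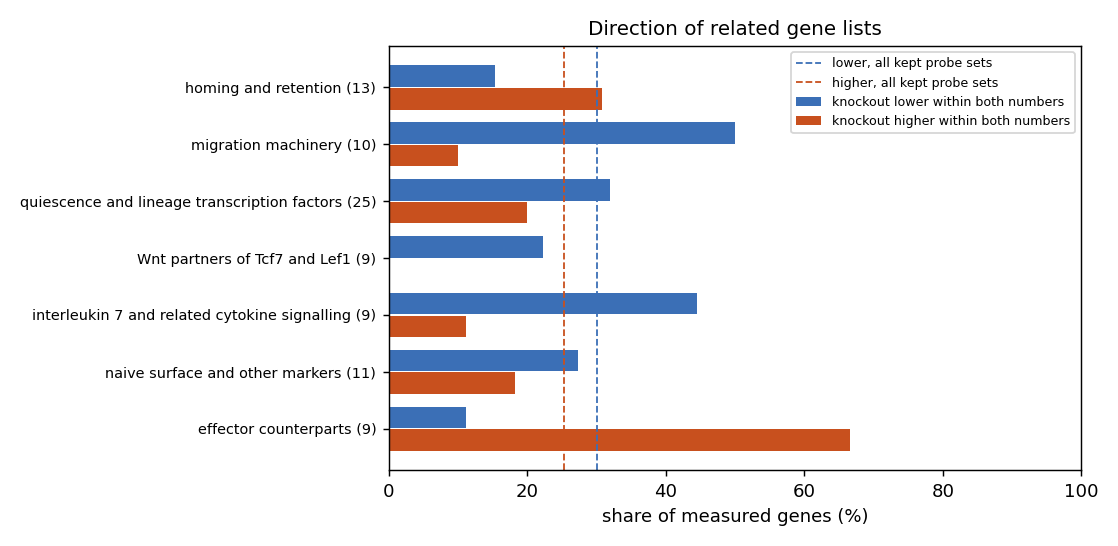
Bars give the share (%) of measured genes of each list, number in brackets, that were lower (blue) or higher (orange) in the knockout within both array numbers; dashed lines give the shares over all kept probe sets, 30.1% lower and 25.3% higher. Of the effector genes 6 of 9 were higher within both, while 5 of 10 migration genes and 4 of 9 cytokine signalling genes were lower.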

How the data were processed

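Expression was measured on 4 one-colour arrays, 2 per group. Per the submitters' processing notes the deposited values are MAS5 intensities, 1 linear signal per probe set; their version is not given in the sources used here. Each array has the same 2% trimmed mean, 500.0. The table has no detection calls, and 4 arrays limit the precision.

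Of 45101 probe sets, 64 controls were left out. Symbols (34945 probe sets with 1, 932 with several, 9160 with none) come from the platform annotation and were updated through Entrez identifiers with RefSeq GRCm38.p6. Signals were taken as log2(signal + 15.3), and the 22518 probe sets with a mean above the median (6.24) were kept. The comparison used limma 3.58.1 (R 4.3.3; two-sided, Benjamini-Hochberg over all kept probe sets, threshold 0.05, no block), and the code was tested on simulated data.

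Array numbers are shared between groups, but the labels tie them to no animal or day. Deviations of same-numbered arrays correlated at 0.80 across probe sets and the bacterial controls followed the number, so it was used as a block in alternative fits. The main fit, which gave the SEs printed without mention of a block, left the number out. The alternatives were pseudocount, filter, normalization, block, prior, threshold and left-out arrays. All 9 members, Furin and, per related list, the up to 2 genes with the largest difference among those of the same sign within both numbers are named, plus the 3 genes nearest to Dapl1. Members, lists and rule were chosen with earlier results of these data known.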

Additional observations from a re-analysis of the deposited data

How the results depend on the processing

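Counts of probe sets past the threshold changed only with the array number as a replicate block: from 0 to 6 with the block, 260 when its prior variance was also trended, and 5 with the block and quantile normalization, a setting chosen after seeing the data. Of the member probe sets, 2 passed under the block and trended prior and 0 under every other setting. The median of the members was -0.18 and ranged from -0.21 to -0.18 over pseudocounts, filters, normalizations and the block, but from -0.41 to 0.28 with 1 array left out, turning sign without wild type replicate 2 or knockout replicate 1. Each such fit leaves the array numbers unbalanced between the groups. With 1 array left out, Foxo1 (brightest probe set) stayed between -0.55 and -0.25, Il7r 1448575_at between -0.32 and -0.22 and Il7r 1448576_at between -0.78 and -0.55. The others changed sign: Ccr7 ranged from -0.80 to 0.22, S1pr1 from -0.57 to 0.05, Klf2 from -0.50 to 0.74, Lef1 from -0.55 to 0.35, Satb1 from -0.55 to 0.61 and Dapl1 from -0.28 to 1.52. Averaging all Satb1 probe sets gave -0.19 in place of 0.03. Quantile normalization took Il7r 1448575_at from -0.27 to -0.39. Arrays without detection calls leave signal over background unknown.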
